A study of Mus musculus with 146 samples.

Results

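The DNA damage checkpoint of the oocyte was followed through 9 of its genes in single germ cells of the newborn mouse ovary. These are Trp63, Trp53, Chek1, Chek2, Atm, Atr, Pmaip1, Bbc3 and Aen, chosen by name, and all 9 are among the 52605 gene symbols of each library. The data were 146 Smart-seq2 libraries made from germ cells picked singly by mouth pipette from trypsin-digested ovaries of C57/BL6J pups at postnatal day 0.5. The pups were of 1 litter, 5 ovaries were taken, and no cell carries the name of its animal, so all cells were treated as 1 sample and no test across cells was made. The study removed cDNA in which Foxl2, a pregranulosa gene, was found by PCR. In 7 pairs of libraries the values of 1 library nearly repeated those of the other (r of log2 values 0.989 to 0.996 over 11972 coding genes, against at most 0.813 for any other pair). The chi-square of their reads was 1.66 to 4.58 per degree of freedom, against 214 to 323 when the first of a pair was set beside the next most similar library. The labels do not say that they share a cell, and each pair was averaged and counted as 1 cell. All 7 fell in cluster 2, described below. Of the cells that remained, 1 was left out because Ddx4, a germ cell RNA helicase, was below 1 TPM in it (transcripts of a gene per 1000000 transcripts of the cell). No cell was irradiated or treated with a drug, so the levels are those of unchallenged newborn ovaries.

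In the perinatal ovary, oocytes with repaired chromosomes arrest at the diplotene stage of the first meiotic prophase. ATM and ATR are large kinases that sense broken or stalled DNA, and they hand the signal to the kinases CHK1 and CHK2. CHK2 and p53-family transcription factors then lead to cell death through the BH3-only proteins NOXA, the product of Pmaip1, and PUMA, the product of Bbc3. In resting oocytes the family member that guards the genome is TAp63, the long form of the product of Trp63, which is held inactive until kinases phosphorylate it. The gene-level values used here do not separate the long and the short forms of Trp63.

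The cells fall into 3 clusters built from 20 stage genes, none of which is a checkpoint gene followed here. Cluster 1 (19 cells) had the highest mean of Sycp2, a gene of the meiotic chromosome axis, at 495 TPM against 169 in cluster 2 (86 cells) and 62.4 in cluster 3 (33 cells). Cluster 3 had the highest mean of Zp3, a gene of the egg coat, at 557 TPM against 15.9 in cluster 2 and 0.094 in cluster 1. Both genes helped to build the clusters, so these values only say what the cluster numbers stand for.

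The promoter windows of Aen and Trp53 are shown because a sequence word of the p53 family lies in them. RefSeq windows of 300 bases, from 250 before to 50 after an annotated start on GRCm38.p6, were found for 7 of the 9 genes (10 windows). The word searched was the p53 decamer, which reads alike on both strands, and it was found in the windows of Aen and Trp53 only, in 3 of the 10 windows. It is present in 2745 of all 32851 windows of that length (8.36%). The window of Aen is chr7:78895808-78896107 on the plus strand, and that of Trp53 is chr11:69580109-69580408 on the plus strand. Capitals mark the decamer, which lies before the annotated start in both windows and begins 75 bases before it in that of Trp53.
Aen: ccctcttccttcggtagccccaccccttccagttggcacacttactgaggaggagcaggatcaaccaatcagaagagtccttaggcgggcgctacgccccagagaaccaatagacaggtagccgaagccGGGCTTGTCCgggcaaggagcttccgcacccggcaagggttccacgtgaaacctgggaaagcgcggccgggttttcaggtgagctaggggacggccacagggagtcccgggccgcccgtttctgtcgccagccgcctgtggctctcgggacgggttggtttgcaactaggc
Trp53: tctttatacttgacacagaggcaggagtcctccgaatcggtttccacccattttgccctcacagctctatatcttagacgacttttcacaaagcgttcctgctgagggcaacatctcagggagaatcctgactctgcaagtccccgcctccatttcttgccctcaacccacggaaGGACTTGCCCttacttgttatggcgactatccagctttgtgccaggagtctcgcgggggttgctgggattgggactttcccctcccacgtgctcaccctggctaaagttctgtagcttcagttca
A second window of Aen, which overlaps the one shown, holds the same decamer. There it lies after the start, from base 11 of that window's transcript on, with the start counted as base 1. The E-box CANNTG, a word of helix-loop-helix factors that reads alike on both strands, was found in 6 of the 10 windows (those of 4 genes), against 72.3% of all windows. A match is a description of these letters and not a site of binding.

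Salmon assigned between 4103144 and 17440741 reads per cell to genes, and the medians were 9615238, 9082254 and 10711092 in clusters 1, 2 and 3. All 6 germ cell markers listed were found, and their summed TPM had medians of 3791, 6407 and 5268. The summed TPM of 6 pregranulosa markers had medians of 0.314, 0.334 and 0.291, and Foxl2 was detected in 4 cells. For 6 stroma markers the medians were 4.35, 0.601 and 0.575, and the highest sums were 270, 385 and 81.5 TPM. The summed level of 9 blood and endothelial markers reached 317773 TPM in 1 cell of cluster 1, and 11 cells (1, 5 and 5 of clusters 1, 2 and 3) were above 10000 TPM. Genes of the dissociation response such as Fos and Egr1 had summed medians of 23.8, 0.223 and 34.5 TPM, and their part in the results was not tested. The cell left out had 1408459 reads, 0 TPM of Ddx4, 91 TPM of Trp63 and 89.96 TPM of Chek2, and it fell in cluster 1. Its summed TPM was 0.88 for the germ cell, 87.6 for the pregranulosa and 234.75 for the stroma markers. The lowest Ddx4 among the cells kept was 7.49 TPM.

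Levels are in TPM, and a gene counts as detected in a cell at 0.1 TPM or more. A ratio is the log2 of the mean TPM of the later over the earlier cluster with 1 TPM added to both means, which understates the difference of low genes, and at least 1.5-fold (0.58) is called a difference. No spread over animals can be given, so spreads are over cells. Each share has its 95% Clopper-Pearson interval, an exact binomial one for counting error alone, and PCR reads without molecular identifiers are not independent molecules.

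**Figure D1:**
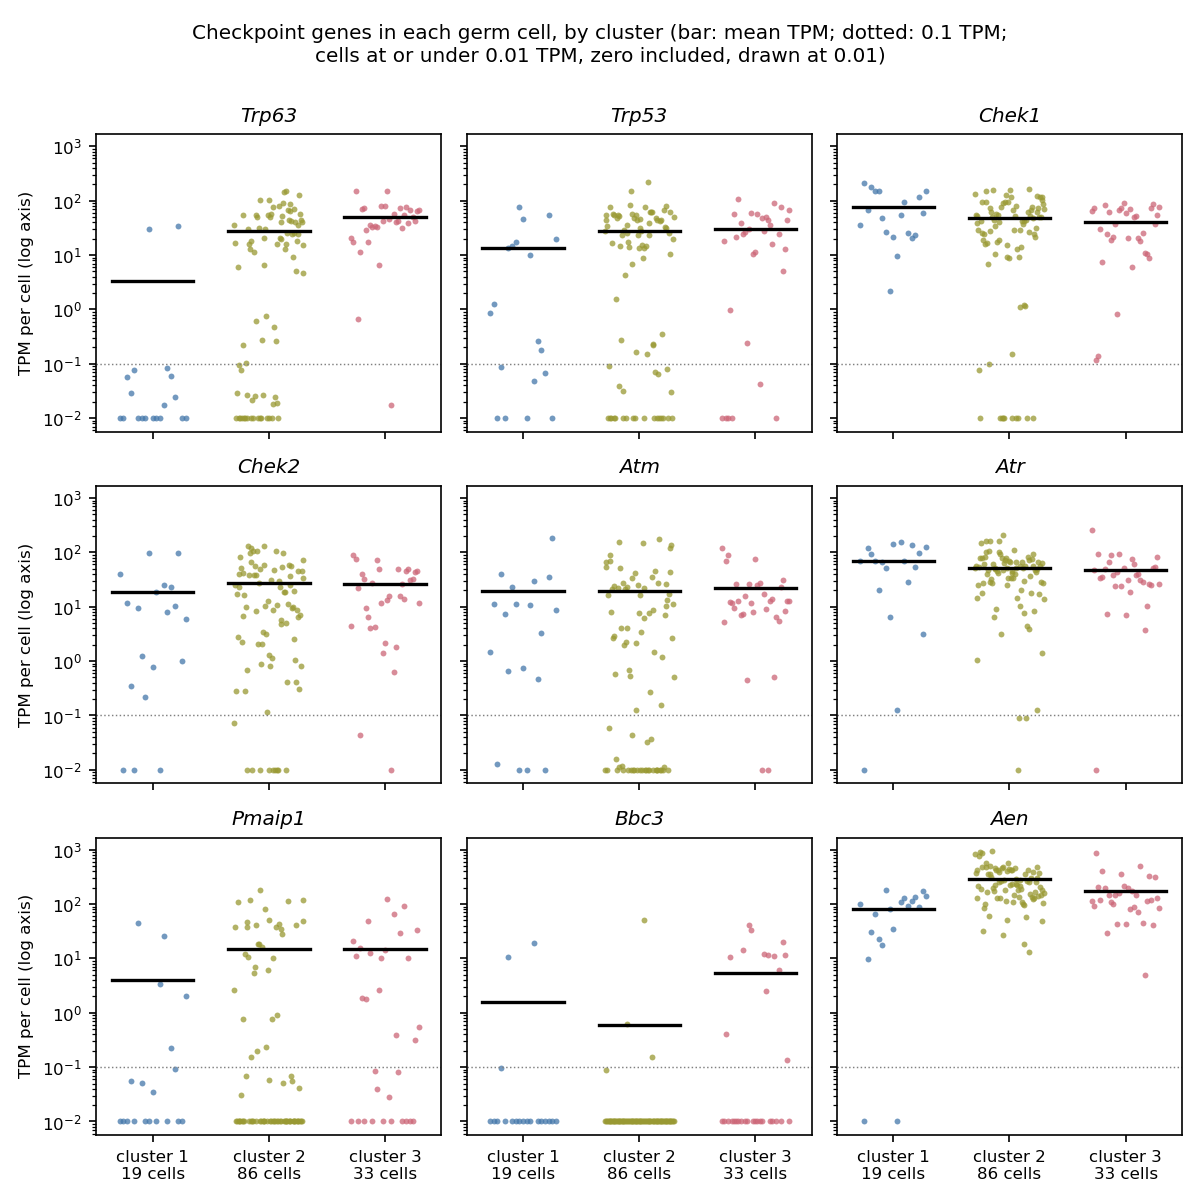
TPM of the 9 checkpoint genes in each cell (points, log axis) in clusters 1, 2 and 3, with the mean of each cluster as a bar. Trp63 is at 0.1 TPM or more in 2 of 19, 60 of 86 and 32 of 33 cells, whereas Aen is high in nearly all cells and Bbc3 is at or near 0 in most of them.

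Trp63 was the checkpoint gene that differed most between cluster 1 and the other two clusters, whereas Bbc3 differed more between clusters 2 and 3. The lowest, median and highest TPM of Trp63 were 0, 0 and 34.5 among the cells of cluster 1, 0, 15.8 and 151 among those of cluster 2, and 0.018, 42.8 and 153 among those of cluster 3. All 33 cells of cluster 3 lay above the median of cluster 1, which was 0, and 21 of them above its highest cell. Clusters 2 and 3 overlapped over nearly their whole range, though 29 of the 33 cells of cluster 3 lay above the median of cluster 2. The means ± SD over cells were 3.40 ± 10.1, 27.4 ± 34.8 and 49.9 ± 35.1 TPM in the order of the clusters. The log2 ratio was 2.69 for cluster 2 over cluster 1, 0.84 for cluster 3 over cluster 2 and 3.53 for cluster 3 over cluster 1. That of cluster 3 over cluster 2 was -0.065 with clusters from variable genes and 2.00 on the mean of log2 values. Of the 11757 coding genes tested, 243 (2.07%) had a ratio of cluster 3 over cluster 1 at least as high.

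The mean of Trp63 in cluster 1 rested on 2 of its 19 cells, at 29.7 and 34.5 TPM, and the other 17 cells lay below 0.1 TPM. Trp63 was thus detected in 10.5% of the cells of cluster 1 (1.30 to 33.1%), in 69.8% of cluster 2 (58.9 to 79.2%) and in 97% of cluster 3 (84.2 to 99.9%). These shares depend on the rule of 0.1 TPM, since 10, 16 and 0 cells of clusters 1, 2 and 3 were at exactly 0 TPM. With 1000000 reads drawn from each cell and at least 1 read as the rule, the numbers were 4 of 19, 58 of 86 and 32 of 33. The median number of reads was 10057740 in the 2 cells of cluster 1 with Trp63 and 9615238 in the 17 without. In cluster 2 it was 9281973 in the 60 cells with Trp63 and 8564754 in the 26 without, and the part of depth was not tested. Without the cell at 34.5 TPM, the log2 ratio to cluster 1 was 3.41 for cluster 2 and 4.25 for cluster 3, and with the left-out cell kept it was 1.69 and 2.54.

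Along the order of cells, Trp63 was higher from bin to bin. The order is the first principal component of the 20 stage genes, turned so that meiotic genes come first, and the cells were cut into 5 bins of 27 or 28. The mean TPM of Trp63 was 4.41, 14.5, 32.2, 46.4 and 50.8 from bin 1 to bin 5, and it was detected in 5, 15, 20, 28 and 26 cells. The mean differed 11.5-fold between bins 1 and 5, and the step from bin 4 to bin 5 was small beside the spread over cells. Against this order Trp63 had a Spearman's rho of 0.63 over all cells. Against an order made from 2000 variable genes without the checkpoint genes it had 0.62, with bin means of 4.2, 9.96, 43.2, 43.5 and 47.6 TPM that hardly differed from bin 3 to bin 4. The coding genes with the most similar pattern over all cells were Pdzk1 (rho 0.66), Zbed3 (0.63) and Nlrp4f (0.63), out of 8256 genes compared.

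**Figure D2:**
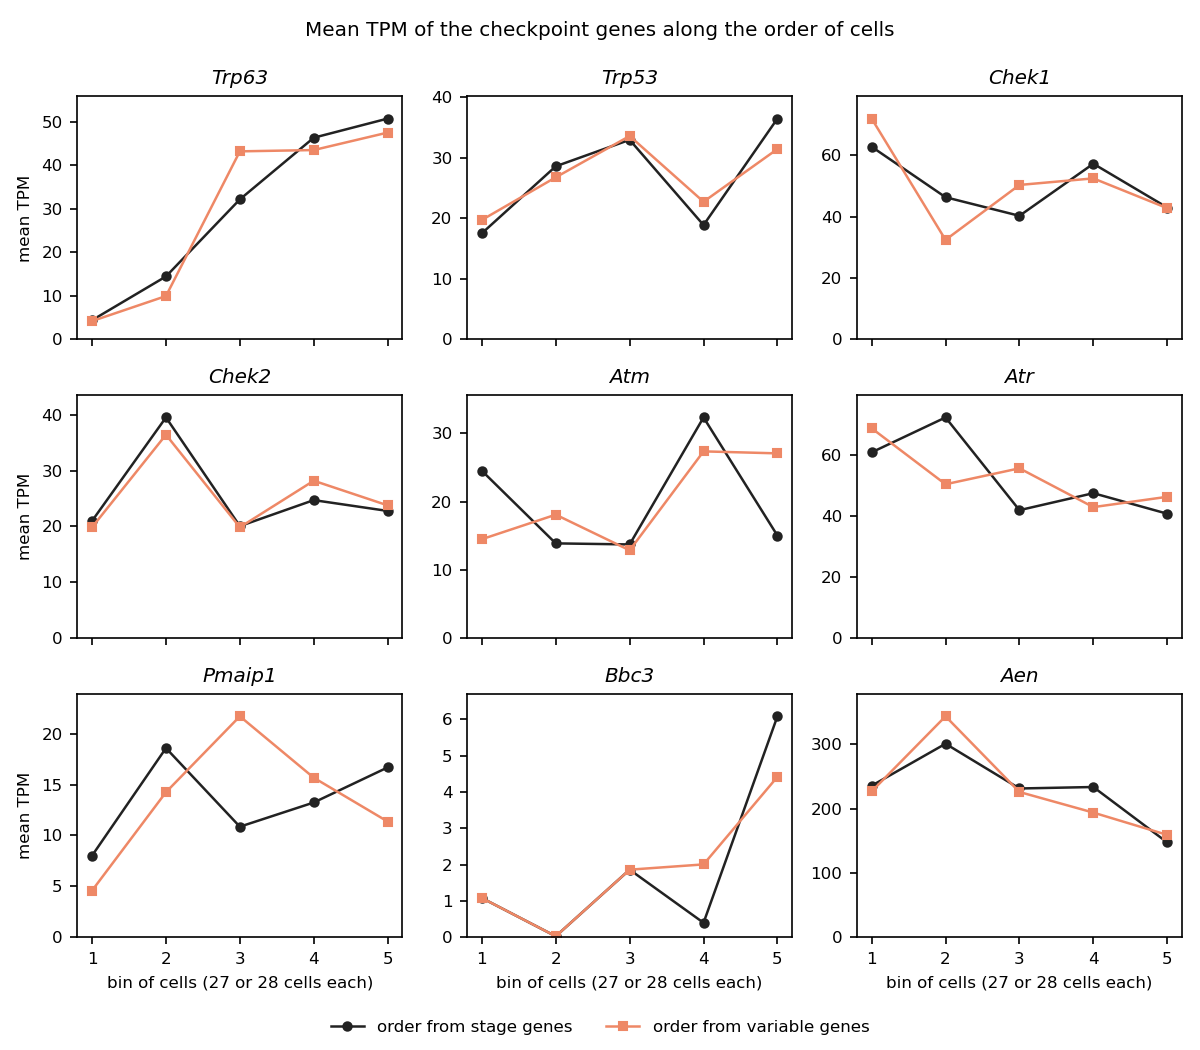
Mean TPM of each checkpoint gene in 5 bins of 27 or 28 cells along the first principal component of the 20 stage genes (black) or of 2000 variable genes (orange), on linear axes that start at 0. Trp63 goes from 4.41 TPM in bin 1 to 50.8 in bin 5, while Aen peaks in bin 2 at 301 TPM and stands at 147.4 in bin 5.

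Trp53 encodes p53, the family member that guards most somatic cells. Its lowest, median and highest TPM were 0, 0.847 and 77.3 among the cells of cluster 1, 0, 18.7 and 222 among those of cluster 2, and 0, 24.7 and 107.7 among those of cluster 3. Cells without the transcript and cells with over 10 TPM stood side by side in each cluster. The means were 13.5, 28.3 and 30.4 TPM, so the ratio was 1.01 for cluster 2 over cluster 1 and 1.11 for cluster 3 over cluster 1. With clusters from variable genes the latter was 0.45, below 1.5-fold. Clusters 2 and 3 differed by a ratio of 0.10, which is below 1.5-fold, but by 1.16 when TPM were divided by the spike-in TPM of the cell. The median of all genes was then 0.60, and relative to it Trp53 stood at 0.57, below 1.5-fold. Trp53 was detected in 63.2% (38.4 to 83.7%), 72.1% (61.4 to 81.2%) and 81.8% (64.5 to 93%) of the cells of clusters 1, 2 and 3, and the 3 intervals overlap. Its bin means (17.5, 28.6, 32.9, 18.9 and 36.4 TPM) had no single direction. Trp63 and Trp53 were detected together in 72 cells, Trp63 alone in 22, Trp53 alone in 29 and neither in 15.

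The sensor kinases were present in most cells at levels that differed less between clusters. Atm, which answers to double-strand breaks, had a lowest, median and highest TPM of 0, 7.34 and 184 in cluster 1, of 0, 2.48 and 178 in cluster 2 and of 0, 12.6 and 122.98 in cluster 3. The means (19.4, 19.5 and 21.7 TPM) lay within 1.5-fold of each other, with ratios of 0.01 for cluster 2 over 1, 0.15 for 3 over 2 and 0.16 for 3 over 1. Other summaries of Atm differed from these. Without the single cell of cluster 1 at 184 TPM, cluster 3 over cluster 1 was 1.02 and cluster 2 over cluster 1 was 0.87. On the mean of log2 values, cluster 3 was higher than cluster 2 by 1.29 and than cluster 1 by 1.03, whereas leaving out single cells kept the former ratio of means between -0.06 and 0.29. Atm was detected in 31 of the 33 cells of cluster 3 (93.9%, 79.8 to 99.3%), in 55 of the 86 of cluster 2 (64%, 52.9 to 74.03%) and in 15 of the 19 of cluster 1 (78.9%, 54.4 to 93.9%). Drawing equal reads left 29, 50 and 14 cells with Atm in clusters 3, 2 and 1.

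Atr, which answers to stretches of single-stranded DNA, was detected in all but 5 cells. Its lowest, median and highest TPM were 0, 68.1 and 158 in cluster 1, 0, 48.1 and 211 in cluster 2 and 0, 38.8 and 254 in cluster 3. Of the 33 cells of cluster 3, 6 lay above the median of cluster 1, so most cells of cluster 3 were in the lower part of the range of cluster 1. The means were 68.8, 51.5 and 47.5 TPM, and the ratios of -0.41, -0.11 and -0.52 for cluster 2 over 1, 3 over 2 and 3 over 1 were below 1.5-fold. Leaving out any of 5 cells brought the ratio of cluster 3 over cluster 1 past 1.5-fold, to between -0.73 and -0.59. Per spike-in, Atr was higher in cluster 3 than in cluster 2 (0.72) and lower in cluster 2 than in cluster 1 (-0.70), where the medians of all genes tested were 0.60 and -0.16. Exons of Atr overlap 2 antisense genes, which share 3.07% and 1.96% of its exon bases, and no source used here says that the counting used strand.

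**Figure D3:**
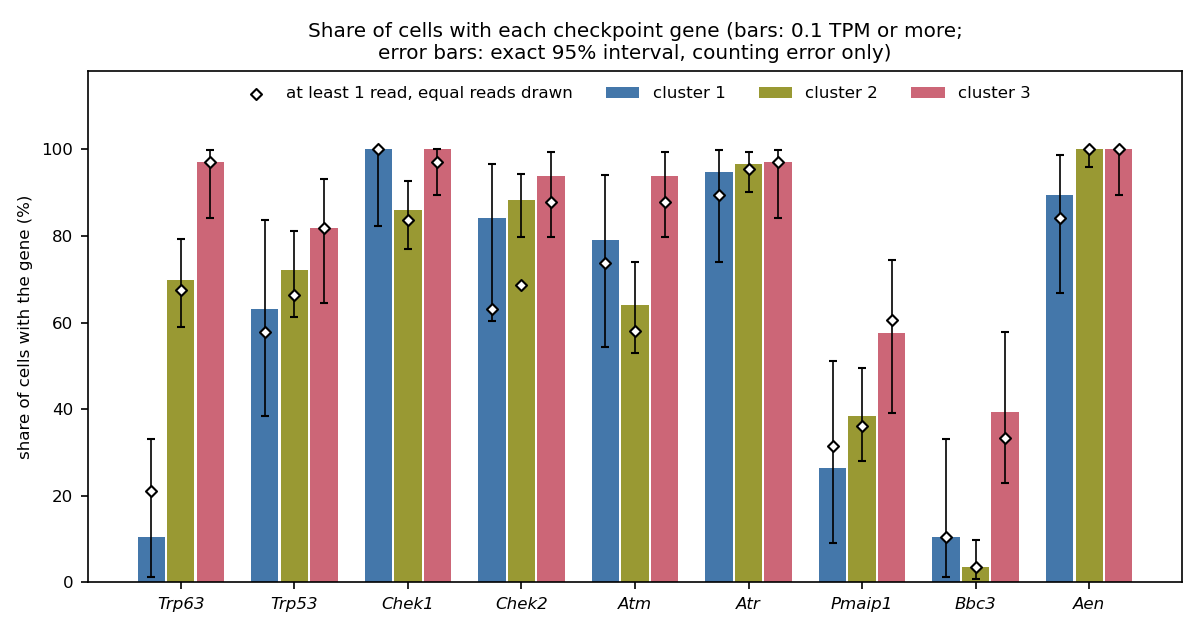
Share (%) of the cells of each cluster with the checkpoint gene at 0.1 TPM or more (coloured bars, with exact 95% intervals that cover counting error only) and with at least 1 of 1000000 reads drawn from each cell (diamonds). Trp63 goes from 10.5% to 69.8% and 97%, and Bbc3 is at 10.5%, 3.49% and 39.4%.

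Of the effector kinases, Chek1 had its highest mean in cluster 1 and Chek2 lay within 1.5-fold in each comparison, though not under every alternative. Chek1, whose product holds the cell cycle and is needed to survive replication stress, had a lowest, median and highest TPM of 2.17, 54.6 and 209 in cluster 1, of 0, 41.6 and 162 in cluster 2 and of 0.118, 37.3 and 89.6 in cluster 3. Both the lowest and the highest cell of cluster 3 lay below those of cluster 1, and 12 of the 33 cells of cluster 3 were above the median of cluster 1. The means were 75.7, 48.1 and 40.4 TPM, with a ratio of -0.89 for cluster 3 over cluster 1 and of -0.65 for cluster 2 over cluster 1. The latter was less than 1.5-fold without any of 5 cells of cluster 1 (-0.57 to -0.50), on CPM (-0.53), with clusters from variable genes (-0.22), with the left-out cell kept (-0.57), on TPM over nuclear coding genes (-0.57) and with every library counted (-0.56). Cluster 3 was less than 1.5-fold below cluster 1 under 4 of the alternatives, namely clusters from variable genes (-0.19), division by spike-ins (-0.30), CPM (-0.56) and Ward clusters (-0.57). With clusters from variable genes Chek1 stood at 0.014 relative to the median of all genes. Per spike-in the median of all genes moved to 0.44 from -0.17 on TPM, and relative to it Chek1 stood at -0.74, against -0.72 on TPM. Cluster 3 stood above cluster 2 by 0.74 per spike-in, where the median of all genes was 0.60. The bin means of Chek1 along the order of the stage genes (62.8, 46.3, 40.3, 57.2 and 43 TPM) had no single direction. Its highest bin median was in bin 4 (57.1 TPM, against 45.1 in bin 1), and its rho with that order was -0.046.

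Chek2, whose product phosphorylates both p53 and TAp63 in oocytes, was detected in 89.1% of the cells (82.7 to 93.8%). Its lowest, median and highest TPM were 0, 8.05 and 96.9 in cluster 1, 0, 10.4 and 132.4 in cluster 2 and 0, 16.02 and 88.5 in cluster 3. The 3 clusters overlapped over almost the whole range, and the means were 18.4, 27.3 and 25.7 TPM. The ratios of 0.55, -0.08 and 0.46 for cluster 2 over 1, 3 over 2 and 3 over 1 were below 1.5-fold. The 2 cells of cluster 1 at 96.4 and 96.9 TPM are also the 2 cells of that cluster with Trp63. Without either of them the ratio of cluster 3 over cluster 1 passed 1.5-fold (0.83), and without any of 3 cells of cluster 1 that of cluster 2 over cluster 1 did (0.64 to 0.92). On CPM, which takes no length into account, the 3 ratios were 0.65, 0.70 and 1.35. Cluster 3 over cluster 1 was 1.15 on the mean of log2 values and 0.62 with Ward clusters. Per spike-in it was 1.04, where the median of all genes was 0.44. Cluster 2 over cluster 1 was 0.68 on the mean of log2 values, but -0.36 with clusters from variable genes. Drawing equal reads lowered the number of cells with Chek2 from 76 to 59 of 86 in cluster 2, from 16 to 12 of 19 in cluster 1 and from 31 to 29 of 33 in cluster 3.

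The BH3-only genes were undetected or near 0 in most cells. Pmaip1 was detected in 57 cells (41.3%, 33 to 49.99%), and its median over all cells was 0.037 TPM. Its lowest, median and highest TPM were 0, 0 and 44.2 in cluster 1, 0, 0 and 182 in cluster 2 and 0, 0.539 and 125.6 in cluster 3. In each cluster a minority of cells was at 10 TPM or more, namely 2 of 19, 23 of 86 and 13 of 33. The means were 3.99, 14.9 and 15.2 TPM, with ratios of 1.67, 0.02 and 1.69. With clusters from variable genes the ratios to cluster 1 were 0.15 and -0.012, which ended both calls, and without the cell of cluster 1 at 44.2 TPM they were 2.53 and 2.55. The shares of cells with Pmaip1 were 26.3% (9.15 to 51.2%), 38.4% (28.1 to 49.5%) and 57.6% (39.2 to 74.5%), whose intervals overlap.

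Bbc3 was the lowest of the 9 genes and was detected in 18 cells (13.04%, 7.92 to 19.8%). Its median was 0 TPM in each cluster, and its highest values were 19.3, 50.0 and 41.9 TPM in clusters 1, 2 and 3. Of the 18 cells, 13 were in cluster 3 (39.4% of its cells, 22.9 to 57.9%), 3 in cluster 2 (3.49%, 0.725 to 9.86%) and 2 in cluster 1 (10.5%, 1.30 to 33.1%). Drawing equal reads left 11, 3 and 2 cells. The clusters also differed in the median number of genes detected (9682 in cluster 3 against 8206 in cluster 2) and in the spike-in share of TPM (0.674% against 1.22%), and their part in this difference was not tested. The mean of 0.592 TPM in cluster 2 came almost wholly from the cell at 50.0 TPM, against 1.58 in cluster 1 and 5.31 in cluster 3. Cluster 3 stood above cluster 2 by a log2 ratio of 1.99, and by 2.64 without that cell. The ratio of cluster 2 over cluster 1 (-0.70) rested on the 2 cells of cluster 1, since it was -0.39 or -0.0042 without either. The genes most like Bbc3 were Lmna (rho 0.37), Sh3gl2 (0.35) and Gstt2 (0.34). In the left-out cell both BH3-only genes were at 0 TPM.

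Aen, a nuclease gene that p53 is known to induce, had the highest level of the 9 genes and was detected in all but 2 cells. Its lowest, median and highest TPM were 0, 88.8 and 178 in cluster 1, 13.1, 229.7 and 940 in cluster 2 and 5.04, 119.3 and 852 in cluster 3. Of the 86 cells of cluster 2, 54 lay above the highest cell of cluster 1, while 6 of the 33 cells of cluster 3 lay above the median of cluster 2. The means ± SD over cells were 79.7 ± 57.5, 285 ± 204 and 175 ± 166 TPM. This gave 1.83 for cluster 2 over cluster 1, -0.70 for cluster 3 over cluster 2 and 1.12 for cluster 3 over cluster 1. This order of the clusters depended on how they were built. With clusters from variable genes, in which cluster 1 holds 60 cells, the ratio to cluster 1 was -0.21 for cluster 2 and -0.70 for cluster 3. In the bins along the order, Aen was highest in bin 2 under both orders, and it was lowest in bin 5. With the stage genes its means were 235.6, 301, 231, 233.6 and 147.4 TPM from bin 1 to bin 5, so bin 5 lay below bin 1, whereas cluster 3 lay above cluster 1. For cluster 3 over cluster 2, Aen had 0.088 per spike-in and -0.49 with clusters from variable genes, and without the 11 cells high in blood markers it had -0.58, just below 1.5-fold. For cluster 3 over cluster 1 it had 0.583 with Ward clusters, also just below 1.5-fold. Its decamer is shown above, and the genes most like it were Ppp2r5a (rho 0.68), Bzw2 (0.66) and Lhx8 (0.50), the last of which is a stage gene.

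**Figure D4:**
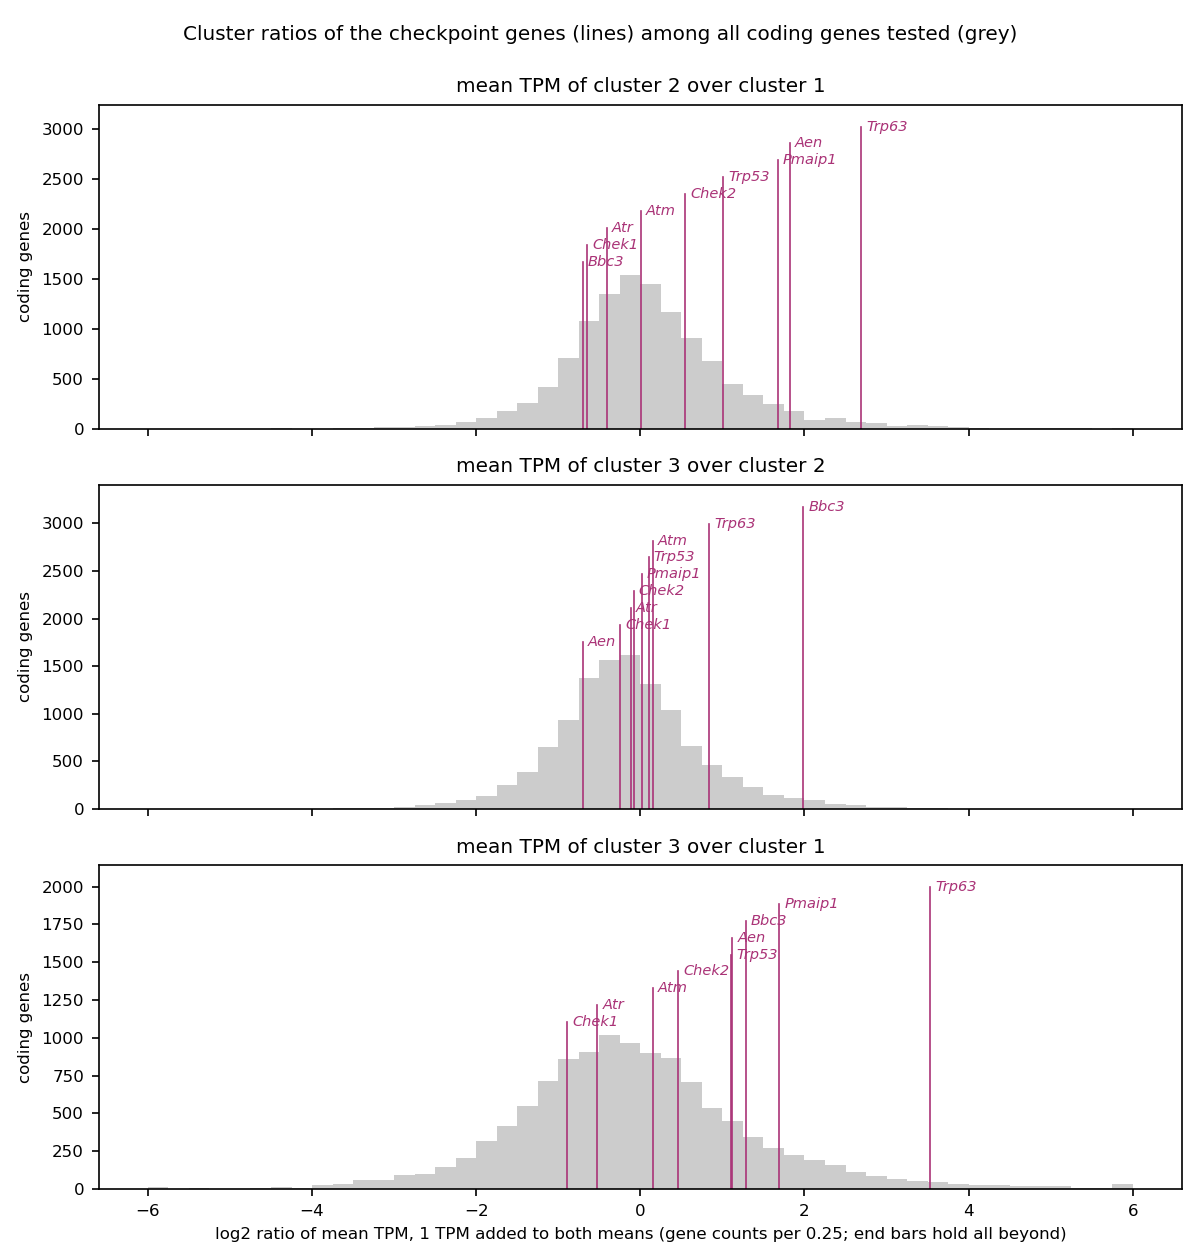
Log2 ratios of mean TPM between clusters for the 9 checkpoint genes (lines) on the distribution over 11757 coding genes with a mean of at least 1 TPM (grey, genes per 0.25). Trp63 is far to the right for cluster 2 over cluster 1 (2.69) and cluster 3 over cluster 1 (3.53), and Bbc3 for cluster 3 over cluster 2 (1.99).

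As a group the checkpoint genes did not move one way. In cluster 2 over cluster 1, 4 of the 9 (Trp63, Trp53, Pmaip1 and Aen) were at least 1.5-fold higher, against 25.1% of all 11757 coding genes tested, and Chek1 and Bbc3 were lower, against 21.7%. In cluster 3 over cluster 2, Trp63 and Bbc3 were higher, against 16.7% of all genes, and Aen was lower, against 29.8%. In cluster 3 over cluster 1, 5 of the 9 (Trp63, Trp53, Pmaip1, Bbc3 and Aen) were higher, against 27.4% of all genes, and Chek1 was lower, against 36%. The median ratio of the 9 was 0.55, 0.02 and 1.11 in these comparisons, beside 0.0046, -0.21 and -0.17 over all genes tested. With every library counted, Chek1 alone changed its call, in cluster 2 over cluster 1. Per spike-in, 20.7% of all genes were higher and 29% lower in cluster 2 over cluster 1, 50.7% and 9.29% in cluster 3 over cluster 2, and 44.97% and 19.4% in cluster 3 over cluster 1. On the mean of log2 values the first 2 of these splits were 15.1% and 28.4%, and 26.8% and 12.8%. The comparisons share cells and are not independent of each other. With these clusters and ratios of mean TPM, no kinase was among the genes called higher. On CPM Chek2 (1.35) and Atm (0.82) were higher in cluster 3 than in cluster 1 as well, and so they were in cluster 3 over cluster 2 (0.70 and 0.99). Some alternatives on TPM also called a kinase higher in cluster 3 than in cluster 1. Examples are the mean of log2 values (Chek2 1.15, Atm 1.03) and clusters from variable genes (Atm 0.98, but Chek2 0.07).

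Cells carried most of the checkpoint genes at once. The number detected per cell ranged from 2 to 9 with a median of 7, and the medians were 6, 6 and 8 in clusters 1, 2 and 3. All 9 were detected in 9 cells, 8 of them in cluster 3 and 1 in cluster 2. The median number of all genes detected was also higher in cluster 3 (9682, against 8495 and 8206 in clusters 1 and 2), and its part in these counts was not tested. Of the 94 cells with Trp63, 90 also had Chek2 (95.7%), against 33 of the 44 cells without Trp63 (75%). Within cluster 2 the numbers were 57 of 60 and 19 of 26, and the median TPM of Chek2 was 18.4 with Trp63 and 1.59 without it. The rho of the 2 genes over the cells of cluster 2 was only 0.18. Bbc3 was detected in 16 of the 94 cells with Trp63 and in 2 of the 44 without, and Pmaip1 in 44 and 13. Within cluster 2, Bbc3 was detected in 3 of the 60 cells with Trp63 and in none of the 26 without, and Pmaip1 in 25 and 8. In cluster 1 both cells with Bbc3 were among the 17 without Trp63. Cluster 3 holds most cells with Bbc3, and 1 of its cells had no Trp63, so no such comparison can be made in it.

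Levels of the 9 genes were only loosely tied to each other from cell to cell. The 36 pairwise values of Spearman's rho across all cells ran from -0.15 (Trp63 and Atr) to 0.27 (Trp63 and Chek2). Points in these correlations are cells of 1 litter, and weak values in sparse data are given as a description only. Trp63 and Aen had a rho of -0.06 over all cells and of -0.29 within the 86 cells of cluster 2, where the median of Aen was 213 TPM in the 60 cells with Trp63 and 337 TPM in the 26 without. Pmaip1 and Bbc3, the BH3-only pair, had a rho of 0.26, with both detected in 14 cells, Pmaip1 alone in 43 and Bbc3 alone in 4.

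**Figure D5:**
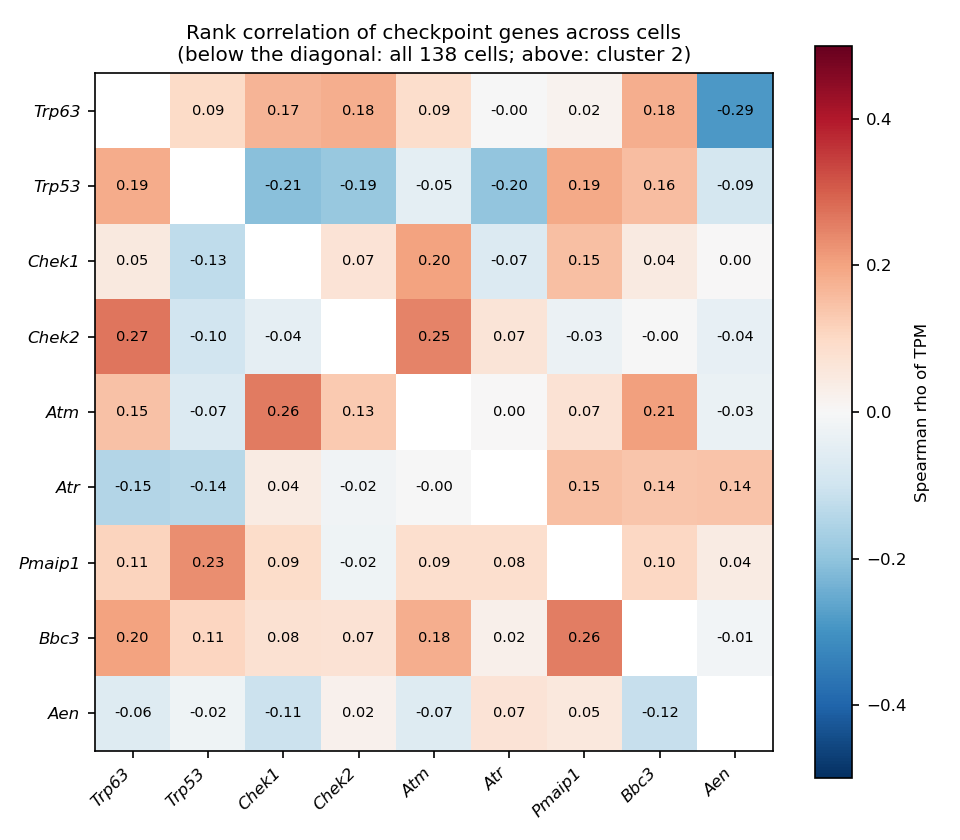
Spearman's rho of TPM between the 9 checkpoint genes, over all cells (below the diagonal) and over the 86 cells of cluster 2 (above it), on a colour scale from -0.5 to 0.5. No pair passes 0.27 over all cells, and the lowest value in cluster 2 is that of Trp63 and Aen (-0.29).

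Ordered by their median over all cells, the genes were Aen (169 TPM), Atr (47.9), Chek1 (41.6), Trp63 (17.9), Trp53 (16.9), Chek2 (11.5), Atm (7.35), Pmaip1 (0.037) and Bbc3 (0). Aen was above Atr in 87.7% of the cells. Atr and Chek1 stood close, with Atr higher in 72 cells and Chek1 in 65. So did Trp63 and Trp53 (66 cells each) and Trp53 and Chek2 (66 and 71). Chek1 was above Trp63 in 87 cells and below it in 49. Chek2 was above Atm in 80 cells (58%, 49.3 to 66.3%) and below it in 50, with 8 equal. Atm was above Pmaip1 in 79 cells (57.2%, 48.5 to 65.6%) and below it in 42, with 17 equal. These shares are of all cells, so equal cells count against the first gene. The lengths by which Salmon divided the reads enter into these levels, and they were often those of short transcripts. In cells with the gene, the median length was 314 bases for Aen, 357 for Chek1 and 580 for Atr, whereas their longest coding transcripts in GENCODE M21 have 4956, 3797 and 8102 bases. Per kilobase of the longest coding transcript, the order of the medians was the same except that Trp53 came before Trp63. On that scale Aen was above Atr in 78.3% of the cells (70.4 to 84.8%) and Chek2 above Atm in 62.3% (53.7 to 70.4%). For the neighbours from Atr down to Chek2 on that scale, the first of each pair was higher in 50% to 55.8% of the cells. Atm was above Pmaip1 in 72 cells and below it in 49, with 17 equal.

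The wider checkpoint pathway was followed with 67 further genes, all found and 63 of them tested. In cluster 3 over cluster 1, 18 of the 63 were at least 1.5-fold higher and 26 lower, against 27.4% and 36% of all genes. The 5 genes of meiotic surveillance were all lower in cluster 2 than in cluster 1 and in cluster 3 than in cluster 1, against 21.7% and 36% of all genes, and 4 of them were lower in cluster 3 than in cluster 2, against 29.8%. Hormad1, which marks unsynapsed axes, stood at 1520, 487 and 181 mean TPM from cluster 1 to cluster 3, and Spo11, which makes the meiotic breaks, had 78.2, 25.3 and 2.53. Trp63, with 3.40, 27.4 and 49.9 TPM over the same cells, had the opposite order to both. Meiotic genes such as Sycp2 helped to build and number the clusters. The order of the meiotic surveillance genes over the clusters is thus not independent of how these were made.

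Among the 13 sensors, 2 were higher and 7 lower in cluster 3 than in cluster 1, that is 15.4% and 53.8%, beside 27.4% and 36% of all genes. Rad50, of the complex that activates ATM, had the highest mean of them and differed little (99.5, 84.4 and 98.5 TPM). Hus1b, a variant of a subunit of the clamp that activates ATR, went from 65.6 to 35.7 and 2.1 TPM, and Rad17, which loads that clamp, from 70.1 to 41.7 and 18.6. Among 9 mediators, 3 were higher (33.3%) and 5 lower (55.6%). H2afx, the histone variant that ATM marks at breaks, had 351, 176 and 93.4 TPM, and Rnf8, the ubiquitin ligase recruited there, had 77.7, 284 and 278. Of 9 cycle effectors, 1 was higher (11.1%) and 3 were lower (33.3%), the latter near the share of all genes. Csnk1a1, a casein kinase, had the highest mean and differed little (161, 142.6 and 135.4 TPM), whereas Csnk1e, another casein kinase, had 37.1, 53.9 and 116.8 TPM and Wee1, which holds CDK1 inactive, 54.8, 42.7 and 32.8.

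Of 4 regulators next to Trp53 that were tested, 2 were higher (50%) and 1 was lower (25%) in cluster 3 than in cluster 1, beside 27.4% and 36% of all genes. Mdm2, the ubiquitin ligase that removes p53, had means of 168, 91.9 and 52.6 TPM, and was the lower one. Mdm4, its partner, had 53.99, 94.1 and 211, and Usp7, a deubiquitinase of p53 and MDM2, had 36.7, 64.96 and 97.7. Ep300, an acetyltransferase of p53, lay within 1.5-fold (20.5, 23 and 27.8 TPM). The third p53-family gene, Trp73, was detected in 1.45% of the cells. Of 16 further p53 targets tested, 7 were higher (43.75%) and 5 lower (31.25%) in cluster 3 than in cluster 1, beside 27.4% and 36% of all genes. Gadd45a had means of 7.04, 27.1 and 68.5 TPM and Perp of 6.07, 8.21 and 28.7, while Ei24, the target with the highest mean, had 46.8, 48.7 and 16.6. Cdkn1a, the cell cycle inhibitor p21, was detected in 36.2% of the cells and was among the targets called higher, with means of 2.40, 6.16 and 11.5 TPM and a ratio of 1.87.

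Downstream of NOXA and PUMA, Bax, the pore protein through which they act, was abundant, with means of 390, 581 and 448 TPM, and its relative Bak1 was detected in 0.725% of the cells. Of 7 death genes tested, 3 were higher (42.9%) in cluster 3 than in cluster 1 and none was lower, beside 27.4% and 36% of all genes. Apaf1, which builds the apoptosome, had 1.41, 4.72 and 5.38 TPM, and Mcl1, a survival protein that NOXA binds, had 19.3, 35.2 and 33.6.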

How the data were processed

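Smart-seq2 libraries (paired-end, spike-ins added) were made from poly(A) RNA of single germ cells of the P0.5 ovary, and 146 are in the series. The authors quantified the reads with Salmon against mm10 and deposited, per gene symbol, TPM, an estimated count of reads and a length in bases. The deposited TPM share 1 total per cell with mitochondrial genes and spike-ins, so a level is relative to the rest of the cell. Annotation release and use of strand are not given in the sources used here. Cells were grouped by the labels as 1 sample of 1 litter, and no test was made from cells. Libraries that correlated at r of 0.9 or more in log2(TPM + 1) were taken as 1 cell after the data were seen. Their TPM, counts and lengths were averaged after the clustering of all libraries.

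Seurat 5.3.0 under R 4.3.3 was used to rebuild the clusters. TPM of coding genes detected in at least 10 cells went through NormalizeData and ScaleData, 10 principal components of 20 stage genes and 20 neighbours, and the resolution was raised from 0.1 by 0.05 until 3 clusters appeared (0.2). The cluster of each cell as the study assigned it was not used here, so a difference from the study may come from the rebuilt clusters. Ratios, shares, exact intervals and rho were computed in Python 3.11.15 (pandas 2.3.3, NumPy 2.4.6, SciPy 1.17.1). The calculation of ratios was tested on simulated data. Genes of all 11757 coding symbols with a mean of at least 1 TPM formed the background, and GENCODE M21 with RefSeq told which symbols are coding.

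The text names the 9 checkpoint genes, the gene with the highest mean and up to 2 with the largest ratio of cluster 3 over cluster 1 per group of the wider list, and the 3 genes most like a checkpoint gene, among those detected in at least 50% of cells. Trp73, Usp7, Ep300, Cdkn1a and Bak1 were named after their values were seen. The checkpoint genes and the lists were chosen with earlier results of these data known. Alternatives were Ward clusters, clusters from 2000 variable genes, clusters without the left-out cell, that cell kept, CPM from the estimated counts, TPM over nuclear coding genes, TPM per spike-in, means of log2 values, a pseudocount of 0.1 TPM, no filter on low genes, other detection rules and each cell left out in turn. Every library counted and clusters built after averaging were added later.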

Additional observations from a re-analysis of the deposited data

How the results depend on the processing

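The number of checkpoint genes at least 1.5-fold apart was 6, 3 and 6 for clusters 1 and 2, 2 and 3, and 1 and 3, beside 46.8%, 46.5% and 63.4% of all genes tested. Clusters from variable genes (3) moved the count for clusters 1 and 2, and CPM (5) and TPM per spike-in (7) that for clusters 2 and 3, by more than 1.5 times. The shares of all genes higher and lower were then 17.5% and 22% with clusters from variable genes, 20.1% and 24.9% on CPM, and 50.7% and 9.29% per spike-in. The counts stayed between 3 and 7, between 2 and 7 and between 4 and 8 over all that were run. Leaving out single cells gave counts between 4 and 7, at 3, and between 6 and 8. Per spike-in the median of all genes tested moved to 0.60 for cluster 3 over cluster 2, and relative to it Trp63 stood at 0.93 and Aen at -0.51, against 1.05 and -0.50 on TPM. Of 378 ratios of single genes under alternatives, 302 kept direction and side of 1.5-fold, 25 changed sign below 1.5-fold, 23 passed it in the same direction, 19 no longer did, 5 that had passed it changed sign and 4 changed sign and then passed it. The 5 were Aen (cluster 2 over cluster 1 -0.21, cluster 3 over cluster 1 -0.70), Pmaip1 (cluster 3 over cluster 1 -0.012) and Trp63 (cluster 3 over cluster 2 -0.065) with clusters from variable genes, and Aen per spike-in (cluster 3 over cluster 2 0.088). The 4, all for cluster 3 over cluster 2, were Atr (0.72), Chek1 (0.74) and Chek2 (0.59) per spike-in and Chek2 on CPM (0.70). Clusters from variable genes place 60 cells in cluster 1, against 19. The ratio of Trp63 for cluster 3 over cluster 1 stayed between 2.1 and 4.62. Leaving out the 11 cells with blood markers above 10000 TPM, counting every library, clustering after averaging and the length of the longest coding transcript were chosen after seeing the data. The first 3 gave 3.51, 3.53 and 3.56 for that ratio, and clustering after averaging took Atr for cluster 3 over cluster 1 to -0.73. The number of checkpoint genes detected per cell had a median of 6 or 7 under each rule. No paired analysis was possible because the labels give no groups that share replicate numbers. Trp63 was detected in 68.1% of cells at 0.1 TPM, in 68.1% with equal reads drawn and in 80.4% with at least 1 estimated read as the rule.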
